A study of Mus musculus with 6 samples.

Results

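The aryl hydrocarbon receptor is a transcription factor that is activated by small ligands, and 8 mouse genes of its pathway are described here out of 54838 gene identifiers in the count files: the receptor Ahr, its partner Arnt, its repressor Ahrr, and the target genes Cyp1a1, Cyp1b1, Tiparp, Aldh3a1 and Nqo1. The genes were chosen by name for their roles, with their read counts in INT-777 and DMSO libraries known. Their differences between these groups are therefore given as a description, and no test of them is used as support. All 8 passed the filter on low counts. Aldh3a1 passed it through its INT-777 libraries, where it was higher, so it had to differ to be tested.

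In resting cells the receptor waits in the cytosol in a complex with HSP90 and other chaperones. A bound ligand (a dietary indole, a tryptophan metabolite or a pollutant such as dioxin) sends it to the nucleus, where it pairs with ARNT and binds DNA at a short core sequence, and genes of xenobiotic metabolism are switched on. Among the induced genes are 2 that limit the response: AHRR competes with the receptor for ARNT, and TIPARP modifies the receptor and speeds its loss. In the intestine the pathway is known for sensing food and microbial products and for its part in barrier defence and in the behaviour of crypt stem cells.

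The cells were intestinal stem cells of mice that carry an eGFP and CreERT2 cassette in the stem cell gene Lgr5 (B6.129P2-Lgr5tm1(cre/ERT2)Cle/J), sorted for high GFP on 3 days from pools of 4 mice and embedded in Matrigel, and no animal age is given in the sources used here. The medium of both groups contained JAG-1, a peptide that stimulates Notch, at 1 µM. It also contained 3 µM CHIR99021, which inhibits GSK3. After 4 h they received INT-777 at 30 µM (3 libraries, 1 a day) or the solvent DMSO (3 libraries, 1 a day). The sample labels give 12 h of treatment and the series text gives 16 h before RNA was taken. INT-777, made from the bile acid scaffold, is an agonist of TGR5, the bile acid receptor encoded by Gpbar1, and the study asked which genes TGR5 stimulation induces in these cells.

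The libraries held 45682340 to 47905087 read pairs assigned to genes. Gpbar1 had 4, 1 and 4 pairs in the INT-777 libraries of days 1, 2 and 3, against 4, 0 and 5 in the DMSO libraries. The sort marker Lgr5 had 67.2, 64.6 and 53.6 CPM (counts per 1000000 assigned pairs, scaled) with INT-777, against 72.3, 74.5 and 62.2 CPM with DMSO. The summed level of 8 stem cell markers was 2169, 2139 and 1728 CPM with INT-777, against 2555, 2535 and 2169 CPM with DMSO, and all 8 were detected. With the day as a block in the fit, 7 of them were called lower and 1 higher (edgeR adjusted p under 0.05). Of all genes, 10.3% and 11.1% were. In the fit of treatment alone only 1 stem cell marker was called, lower. Day 3 stood apart from the other days: the mean chi-square per gene between libraries of 1 group, which is near 1 for counting noise alone, was 3.236 between days 1 and 2 and 54.1 between days 1 and 3 with INT-777, and 2.44 and 89.6 with DMSO. Summed levels of 8 goblet cell markers were 3000, 2900 and 12440 CPM with INT-777, against 5658, 5562 and 28210 CPM with DMSO, on days 1, 2 and 3. Fcgbp alone had 7857 CPM with INT-777 and 18980 CPM with DMSO on day 3. With the block 7 of these markers were called lower, and none was called without it. Those of 16 immune cell markers, 4 of which passed the filter, were 3.26, 3.59 and 12.7 CPM with INT-777, against 3.10, 3.77 and 12.9 CPM with DMSO. The leukocyte gene Ptprc had 3, 4 and 61 pairs with INT-777, against 0, 0 and 70 with DMSO. In bulk RNA, a change in the number of cells of a type and a change in RNA per cell cannot be told apart.

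The promoters of 4 target genes are shown first, because these genes were higher with INT-777 on each day and carry the core letters that the receptor and ARNT bind, GCGTG or its reverse complement CACGC. Of the 8 genes, 6 have a window in the RefSeq table of the GRCm38.p6 build, from 250 bases before to 50 after the start of transcription. Ahr and Aldh3a1 have none there. Capitals mark the core on either strand.
Ahrr: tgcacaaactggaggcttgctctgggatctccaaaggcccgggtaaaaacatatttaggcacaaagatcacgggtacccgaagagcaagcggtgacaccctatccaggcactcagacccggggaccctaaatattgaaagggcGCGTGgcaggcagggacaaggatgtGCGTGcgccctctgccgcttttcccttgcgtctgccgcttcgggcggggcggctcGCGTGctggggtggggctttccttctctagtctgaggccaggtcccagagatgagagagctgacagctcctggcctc
Cyp1a1: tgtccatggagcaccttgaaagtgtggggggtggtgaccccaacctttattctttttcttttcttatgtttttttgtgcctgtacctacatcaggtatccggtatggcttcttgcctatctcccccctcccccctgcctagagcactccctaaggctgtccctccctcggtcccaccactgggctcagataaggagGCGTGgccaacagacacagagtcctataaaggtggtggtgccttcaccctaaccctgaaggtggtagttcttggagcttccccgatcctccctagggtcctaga
Cyp1b1: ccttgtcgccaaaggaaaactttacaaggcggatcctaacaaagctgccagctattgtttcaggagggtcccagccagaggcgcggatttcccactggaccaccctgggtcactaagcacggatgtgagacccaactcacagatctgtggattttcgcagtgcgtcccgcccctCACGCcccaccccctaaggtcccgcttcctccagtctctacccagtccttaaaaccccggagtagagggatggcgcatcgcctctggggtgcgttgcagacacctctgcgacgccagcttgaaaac
Tiparp: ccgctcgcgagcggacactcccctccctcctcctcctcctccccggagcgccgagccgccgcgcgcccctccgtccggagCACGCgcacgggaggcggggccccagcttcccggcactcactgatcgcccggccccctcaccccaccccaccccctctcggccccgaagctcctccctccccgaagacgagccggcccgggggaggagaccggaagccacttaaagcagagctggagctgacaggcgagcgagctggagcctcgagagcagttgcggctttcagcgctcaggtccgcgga
The windows lie at chr13:74292282-74292581 (minus strand) for Ahrr, chr9:57697363-57697662 (plus strand) for Cyp1a1, chr17:79715012-79715311 (minus strand) for Cyp1b1 and chr3:65528197-65528496 (plus strand) for Tiparp. The Cyp1a1 window lies within the gene span given below, which begins at 57687928, so its positions are counted from a start inside that span. Ahrr had 3 cores, at positions −107, −82 and −27, counted from the start of transcription to the first letter. The core nearest the start lies within the longer form TNGCGTG (letters tcgcgtg), which shares its letters with the core. Cyp1a1, Cyp1b1 and Tiparp had 1 core each, at positions −54, −76 and −170, and Arnt had 1 as well. The Nqo1 window held none. Of all 32851 windows in the table, 32.4% held at least 1 core on either strand, 3.91% held 3 or more, and 5.07% held TNGCGTG. A match is a description of the letters and not evidence that the receptor binds there.

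Ahr, the receptor gene (chromosome 12, 35497974 to 35535038, minus strand, GRCm38), had 38.4, 38.5 and 29.4 CPM in the INT-777 libraries of days 1, 2 and 3, against 30.3, 31.996 and 26.4 CPM in the DMSO libraries. It was higher with INT-777 on each day, but the INT-777 library of day 3 lay below the DMSO libraries of days 1 and 2, so the groups overlapped. The log2 difference was 0.35, 0.27 and 0.16 on days 1, 2 and 3, and 0.26 ± 0.12 (SE) over all libraries. A non-coding gene on the other strand, Gm48236, overlaps an exon of Ahr, and these libraries did not keep strand.

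Arnt, the gene of the partner protein (chromosome 3, 95434388 to 95497240), was at nearly the same level in every library. It had 66.4, 65.5 and 65.2 CPM with INT-777, against 63.9, 65.9 and 66.1 CPM with DMSO. Its log2 difference was 0.01 ± 0.05 (SE), and it was higher with INT-777 on 1 of 3 days.

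Ahrr, the repressor (chromosome 13, 74211118 to 74292331, minus strand), was at 12.7, 13.5 and 12.5 CPM with INT-777, against 5.99, 5.62 and 4.46 CPM with DMSO. Every INT-777 library lay above every DMSO library, at 2.12, 2.40 and 2.80 times the DMSO library of the same day. The log2 difference over all libraries was 1.27 ± 0.12 (SE). Set against the receptor gene in the same library, there were 33.0, 35.1 and 42.3 Ahrr pairs for every 100 Ahr pairs with INT-777, against 19.8, 17.6 and 16.9 with DMSO, and these ratios did not overlap between the groups.

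**Figure D1:**
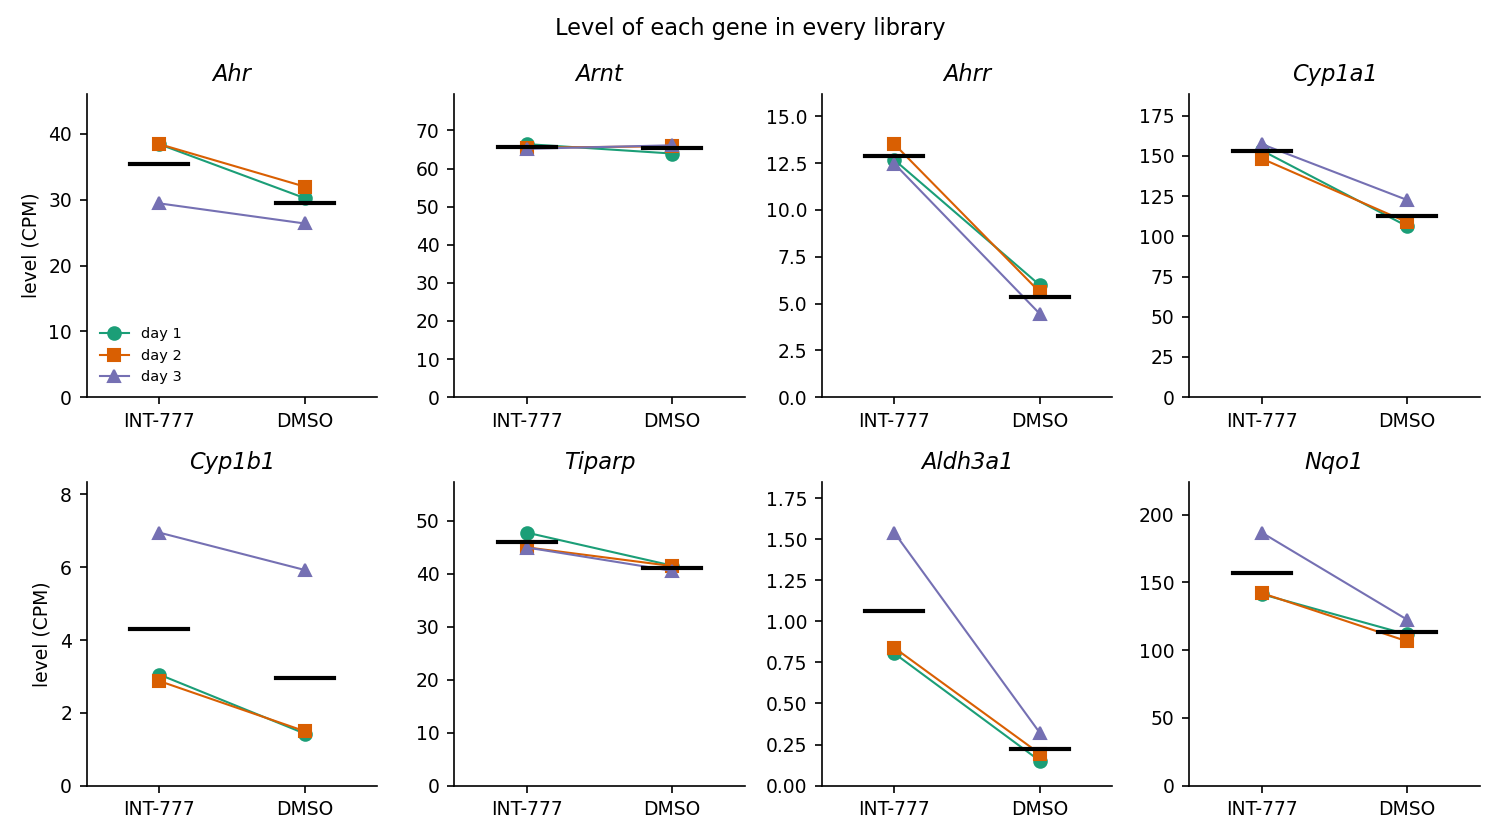
Level of each of the 8 genes in CPM (linear axis from 0) in the INT-777 and DMSO libraries. Lines join the libraries of 1 day and black bars are group means; Ahrr, Cyp1a1, Tiparp, Aldh3a1 and Nqo1 do not overlap between groups, Arnt is level, and Cyp1b1 is highest on day 3 in both groups.

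Tiparp, the ADP-ribosyltransferase that limits the receptor (chromosome 3, 65528410 to 65555518), had 47.7, 45.0 and 44.9 CPM with INT-777, against 41.5, 41.4 and 40.5 CPM with DMSO. The groups did not overlap, although the difference was small, with a log2 value of 0.16 ± 0.05 (SE). The pseudogene 4931440P22Rik overlaps an exon of Tiparp on the other strand, and pairs that fit both genes were not counted for either. Ahrr and Tiparp are both feedback genes of the receptor, and their differences were 2.41-fold and 1.11-fold in mean CPM.

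Cyp1a1, the cytochrome P450 that is the most used readout of the receptor (chromosome 9, 57687928 to 57703824), had 153, 148 and 157 CPM with INT-777, against 106.3, 108.9 and 122.6 CPM with DMSO. All 3 INT-777 libraries were above all 3 DMSO libraries. The mean was 1.36-fold higher and the log2 difference was 0.44 ± 0.06 (SE). The gene was well covered without INT-777 too, by 4899 to 5692 pairs in each DMSO library.

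Cyp1b1, a related cytochrome that oxidises steroids and pollutants (chromosome 17, 79701537 to 79715061, minus strand), was low. It had 3.05, 2.87 and 6.95 CPM with INT-777, against 1.43, 1.497 and 5.92 CPM with DMSO. The DMSO library of day 3 was above the INT-777 libraries of days 1 and 2, so the groups overlapped, yet on each day the INT-777 library was the higher of its pair, by 2.13, 1.92 and 1.17 times. The log2 difference was 0.54 ± 0.70 (SE) over all libraries and 0.66 ± 0.16 (SE) with the day as a block in the fit, and in the fit of treatment alone it ran from −0.0028 without INT-777 replicate 3 to 1.54 without DMSO replicate 3 (0.21 and 0.22 without DMSO replicates 1 and 2).

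Aldh3a1, an aldehyde dehydrogenase (chromosome 11, 61207537 to 61218421), was the lowest of the 8 genes and had the largest relative difference among them. Its counts were 38, 40 and 72 pairs with INT-777, against 7, 9 and 15 with DMSO. These are 0.805, 0.839 and 1.54 CPM with INT-777, against 0.152, 0.195 and 0.323 CPM with DMSO. The groups did not overlap and the mean was 4.75-fold higher (log2 difference 2.23 ± 0.40, SE), which rests on 15 pairs or fewer in each DMSO library.

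Nqo1, a quinone reductase that both the receptor and the stress factor NRF2 can induce (chromosome 8, 107388225 to 107403206, minus strand), had 141, 142 and 187 CPM with INT-777, against 112, 107 and 122 CPM with DMSO. No INT-777 library was as low as any DMSO library. The mean was 1.38-fold higher, with a log2 difference of 0.46 ± 0.12 (SE).

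Among these 8 genes, 5 had every INT-777 library above every DMSO library, as did 13.5% of the 15998 genes tested, and 7 were higher with INT-777 on all 3 days, as were 26.8%. In the edgeR quasi-likelihood fit of treatment alone, Ahrr, Cyp1a1 and Aldh3a1 were past a Benjamini-Hochberg adjusted p of 0.05 over all genes, higher with INT-777. That is 3 of 8, where 0.688% of all genes were called higher. With the day added to the fit as a block, this held for all but Arnt, 7 of 8, where 11.1% of all genes were called higher; Tiparp was lost when days 1 and 2 were summed in that fit (edgeR). The genes were chosen with this comparison in view, so nothing is read from either count. The count of 3 depended on single libraries. It was 0 without INT-777 replicate 1, INT-777 replicate 2 or DMSO replicate 2 (edgeR; by unadjusted p, 4, 5 and 4 were under 0.05; other tools were not run on these subsets), and 1, Ahrr, without DMSO replicate 1 or INT-777 replicate 3. Without both libraries of day 3 it was 7, and without both of day 1 or of day 2 it was 0 (edgeR; 4 with an unadjusted p under 0.05 in each).

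**Figure D2:**
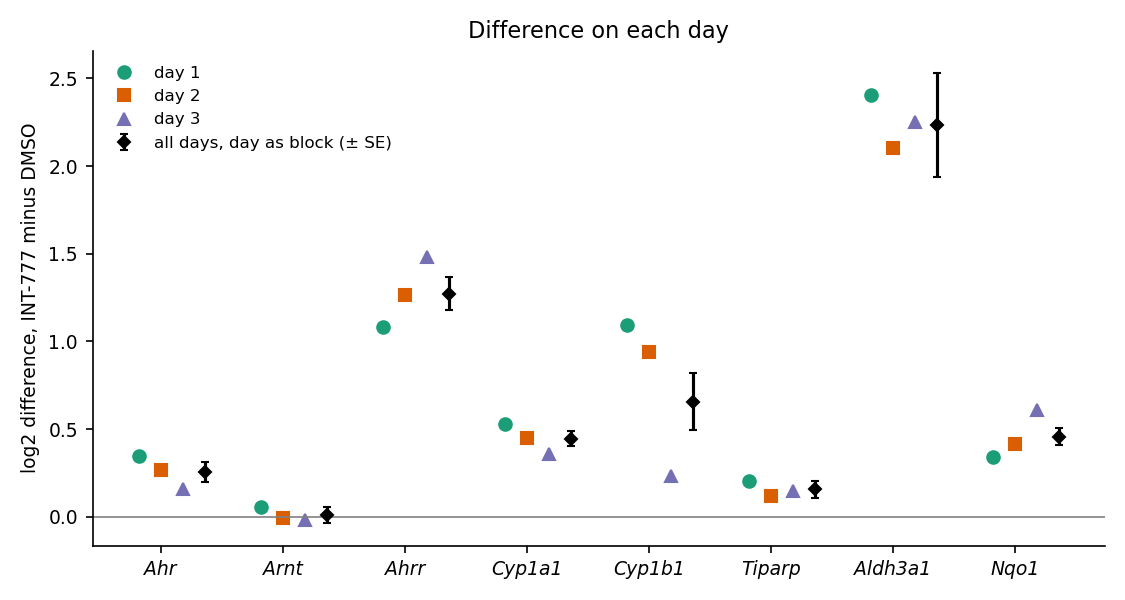
Log2 difference of INT-777 minus DMSO for each gene on each day (coloured symbols, 1 library against 1) and over all days with the day as a block (black, ± SE). The values of Ahr, Arnt, Cyp1a1 and Cyp1b1 are lowest on day 3, at 0.16, −0.02, 0.36 and 0.23. Those of Ahrr and Nqo1 are largest there, at 1.48 and 0.61. Only for Cyp1b1 and Nqo1 did the test of day 3 against days 1 and 2 pass.

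**Figure D3:**
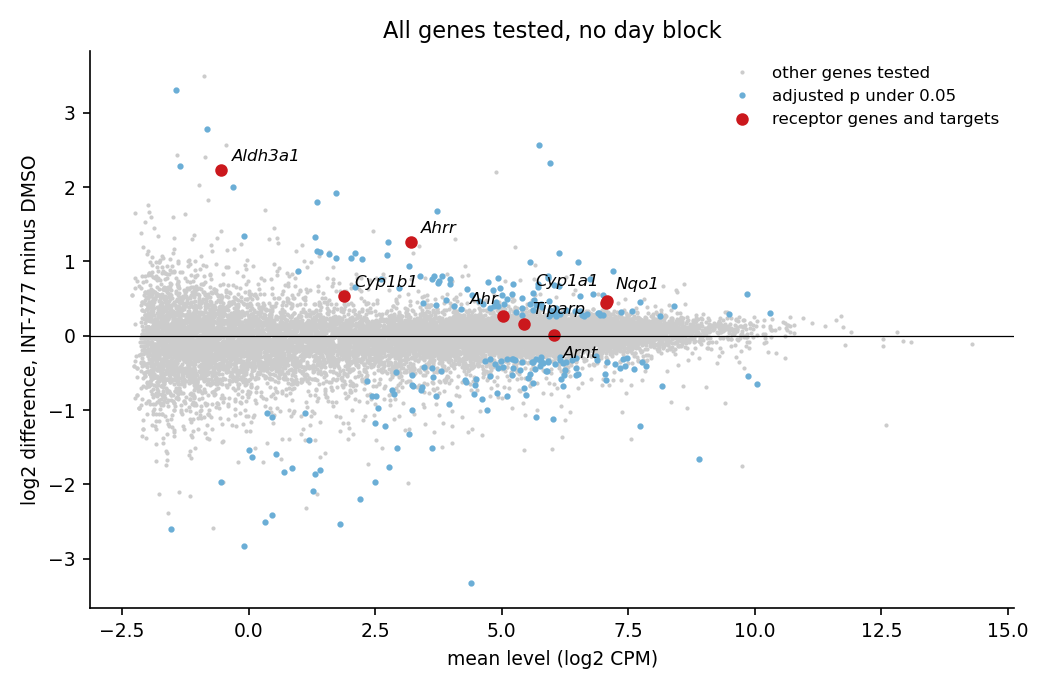
Log2 difference of INT-777 minus DMSO (vertical axis) against mean level in log2 CPM (horizontal axis) for the 15998 genes tested, in the fit of treatment alone. Blue points are the 232 genes past the adjusted p of 0.05; red points are the 8 genes, from Arnt at 0.01 to Aldh3a1 at 2.23.

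Per kilobase of exon, the scale on which different genes can be compared, Nqo1 had the highest level of the 8 genes and Aldh3a1 the lowest, in both groups. The levels with INT-777 were 101 ± 16.7 CPM per kb for Nqo1, 54.9 ± 1.62 for Cyp1a1, 10.5 ± 0.371 for Tiparp, 8.20 ± 0.0804 for Arnt, 5.75 ± 0.843 for Ahr, 1.36 ± 0.0585 for Ahrr, 0.735 ± 0.395 for Cyp1b1 and 0.547 ± 0.214 for Aldh3a1 (mean and SD, n = 3). With DMSO they were 73.1 ± 5.25, 40.4 ± 3.15, 9.44 ± 0.126, 8.15 ± 0.148, 4.79 ± 0.465, 0.567 ± 0.0845, 0.505 ± 0.441 and 0.115 ± 0.0458 CPM per kb for the same genes in the same order. The order was the same in both groups. Among neighbours in this order, Cyp1b1 and Aldh3a1 differed by less than the SD of Cyp1b1 in both groups, and so did Ahrr and Cyp1b1 with DMSO. The 2 enzymes at the top ranked 571 (Nqo1) and 1220 (Cyp1a1) among the 15998 tested genes with DMSO, whereas Ahr ranked 7854 and Ahrr 12486.

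The genes were not chosen on differences between days, although day 3 was known to stand apart, and these differences were tested in a model of treatment and day. The p-values are of any difference among the 3 days, whereas the log2 values set day 3 against days 1 and 2. Cyp1b1 and Nqo1 were higher on day 3 and Ahr was lower. Cyp1b1 averaged 6.44 CPM on day 3 and 2.21 CPM on days 1 and 2, a log2 difference of 1.59 (edgeR quasi-likelihood test, adjusted p = 1.391e-05). Nqo1 averaged 155 CPM on day 3 and 125 CPM on days 1 and 2 (log2 0.29, edgeR adjusted p = 0.002623), and the log2 difference was 0.17 without INT-777 replicate 3. Ahr averaged 27.9 CPM on day 3 and 34.8 CPM on days 1 and 2 (log2 −0.31, edgeR adjusted p = 0.004781). These 3 of 8 calls stand beside 20.5% of all genes, and they held without each library in turn. The other 5 genes did not pass, with log2 differences of 0.12 for Cyp1a1 (edgeR adjusted p = 0.1572), 0.90 for Aldh3a1 (0.08283), −0.20 for Ahrr (0.3899), −0.04 for Tiparp (0.7823) and 0.01 for Arnt (0.9896).

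Marker sums also differed by day. Those of goblet, enteroendocrine, tuft, immune, and stromal and endothelial markers were higher on day 3 in both groups. Those of stem cell, Paneth cell and enterocyte markers were lower on day 3 in both groups. The 6 Paneth cell markers summed to 3347, 3537 and 2245 CPM with INT-777, against 3874, 3684 and 3413 CPM with DMSO. Summed levels of 6 enteroendocrine markers were 498.5, 500.5 and 1864 CPM with INT-777, against 533.8, 546.6 and 2403 CPM with DMSO. A list of 8 stromal and endothelial markers had 2 that passed the filter. Its sums were 1.187, 1.217 and 3.571 CPM with INT-777, against 1.628, 1.388 and 4.093 CPM with DMSO. Within it, the fibroblast genes Dcn and Col3a1 and the endothelial gene Cdh5 had at most 1 pair in any library. Pecam1, which endothelial cells and some leukocytes express, had 29, 33 and 126 pairs with INT-777, against 38, 30 and 128 with DMSO. RNA integrity numbers of day 3 were 9.0 with INT-777 and 8.7 with DMSO, and 9.2 or more in every other library. The part of these in the levels of Cyp1b1, Nqo1 and Ahr was not tested.

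The treatment difference on day 3 was also unlike that of days 1 and 2 for Cyp1b1 and Nqo1, in opposite directions. As day 3 had 1 library per treatment, the p-values set it against the spread between days 1 and 2 alone. Cyp1b1 had log2 differences of 1.09 and 0.94 on days 1 and 2 and 0.23 on day 3, and the difference of day 3 from days 1 and 2 was −0.78 ± 0.23 (SE, edgeR adjusted p = 0.02709). Nqo1 had log2 differences of 0.34 and 0.42 on days 1 and 2 and 0.61 on day 3, a difference of 0.23 ± 0.06 (SE, edgeR adjusted p = 0.007867). These 2 of 8 calls stand beside 7.01% of all genes. The model takes days 1 and 2 as replicates, has 2 residual degrees of freedom, and lost both calls without DMSO replicate 1 (adjusted p = 0.2449 for Cyp1b1 and 0.2095 for Nqo1) or DMSO replicate 2 (0.2127 and 0.1241), and that of Cyp1b1 without INT-777 replicate 1 (0.07795). For the other 6 genes the difference between days did not pass. It was 0.31 ± 0.16 for Ahrr (edgeR adjusted p = 0.2773), −0.13 ± 0.06 for Cyp1a1 (0.1893) and −0.15 ± 0.09 for Ahr (0.3819).

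The other genes of the pathway were counted from 6 lists of 77 genes in all, 61 of which passed the filter. Of the 61, Tbl3 and Gsr rose and Vav3 fell in the fit of treatment alone, where 0.688% of all genes were called higher and 0.763% lower. Once the day was blocked, 13 rose and 9 fell, where 11.1% and 10.3% of all genes were called. The median log2 difference was 0.06 over the 61 genes and 0.00 over all genes. None of the 3 calls of the first fit was left without any single library (edgeR; 8 to 16 of the 61 had an unadjusted p under 0.05). With DESeq2 size factors in place of TMM the calls of Gsr (edgeR adjusted p = 0.05189) and Tbl3 (0.06401) were lost and that of Vav3 held.

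Further known target genes of the receptor were more often lower than higher with INT-777. Of 23 listed, 19 were tested, their median log2 difference was −0.10, and 6 of 19 values were positive. Among all genes tested, 8106 of 15998 values were positive. Vav3, a guanine nucleotide exchange factor, had 6.40, 6.21 and 6.10 CPM with INT-777, against 9.01, 8.57 and 8.70 CPM with DMSO, and fell (log2 −0.49 ± 0.09, edgeR adjusted p = 0.04522). No target on this list was called higher without the block (edgeR; 2 had an unadjusted p under 0.05, DESeq2 called 0 higher and 2 lower, and limma-voom 0 and 1). Blocked by day, 2 rose and 7 fell, where 11.1% and 10.3% of all genes were called. Beside Vav3, the lower ones were Nedd9, an adaptor of focal adhesions (log2 −0.19 ± 0.05, edgeR adjusted p = 0.007826 with the block), Xdh, xanthine dehydrogenase (−0.22 ± 0.05, 0.006298), Cdkn1b, a cell cycle inhibitor (−0.15 ± 0.04, 0.01687), and 3 with larger differences, named after their values were seen. These were the actin-severing protein gene Scin (−1.003 ± 0.087, edgeR adjusted p = 1.305e-06 with the block), the cytokine signalling inhibitor Socs2 (−0.47 ± 0.08, 0.0007131) and the selenium-binding protein gene Selenbp1 (−0.42 ± 0.08, 0.002334). Scin had 6.12, 5.98 and 14.3 CPM with INT-777, against 10.9, 11.1 and 33.2 CPM with DMSO, and was highest on day 3 in both groups. The call of Cdkn1b was lost when days 1 and 2 were summed (edgeR adjusted p = 0.06804). The 2 higher ones, named after their values were seen, were the amino acid transporter Slc7a5, at 189, 187 and 152 CPM with INT-777, against 156, 157 and 127 CPM with DMSO, and the prostaglandin synthase Ptgs2, at 1.716, 1.133 and 2.117 CPM with INT-777, against 1.150, 1.063 and 0.7109 CPM with DMSO. The conjugating enzymes Ugt1a7c and Gsta1 had log2 differences of −0.06 ± 0.09 and −0.01 ± 0.26 (SE) and passed in neither fit. Neither did Rnf43 (−0.02 ± 0.06) and Znrf3 (0.06 ± 0.07), which dampen Wnt signalling, or Cdx2 (0.05 ± 0.05), a factor of intestinal identity.

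**Figure D4:**
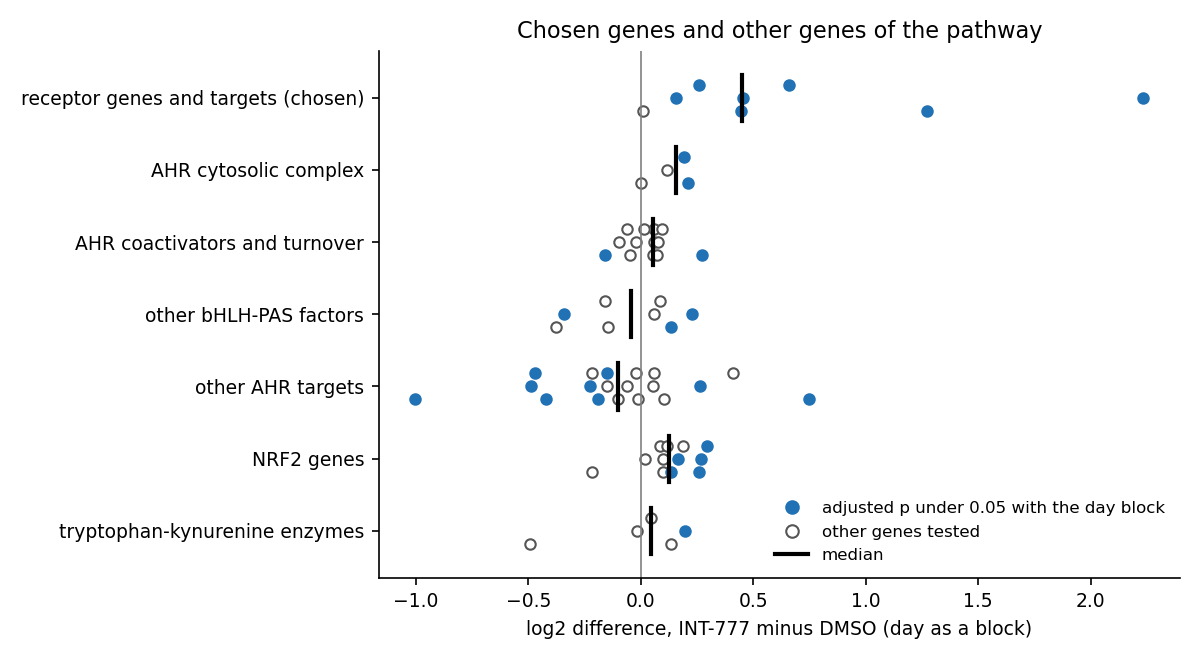
Log2 difference of INT-777 minus DMSO, with the day as a block, for the 8 chosen genes and for each tested gene of 6 lists of the pathway; filled points passed the adjusted p of 0.05 and bars are medians. The chosen genes, whose direction was known when they were chosen, have a median of 0.45 and the other receptor targets one of −0.10.

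Of 12 tested genes of NRF2, the factor that also drives Nqo1, 11 had positive log2 differences, with a median of 0.13. Over all genes tested, 8106 of 15998 were positive. Gsr, glutathione reductase, had 304, 302 and 306 CPM with INT-777, against 254, 252 and 252 CPM with DMSO, and rose (log2 0.27 ± 0.05, edgeR adjusted p = 0.04118). Blocked by day, 5 were higher, as 11.1% of all genes were, and none was lower (edgeR; without the block 2 had an unadjusted p under 0.05, both higher, and DESeq2 and limma-voom each called 1 higher and 0 lower). Among them were the glutathione synthesis gene Gclc (log2 0.29 ± 0.04, edgeR adjusted p = 0.000155 with the block), the malic enzyme Me1 (0.26 ± 0.04, 0.000624) and the pentose phosphate enzyme G6pdx (0.16 ± 0.05, 0.0394). In the fit of treatment alone their log2 differences were 0.30, 0.27 and 0.17, and without INT-777 replicate 3 they were 0.13, 0.12 and 0.06. Without both libraries of day 3 the call of G6pdx was lost (log2 0.06, edgeR adjusted p = 0.1181), and those of Gclc and Me1 held (0.24 and 0.21). Nfe2l2, which encodes NRF2, had a log2 difference of 0.02 ± 0.08 (SE).

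The partners of the receptor protein come next, beside the 11.1% of all genes called higher and 10.3% called lower with the block. Of 4 genes of its cytosolic complex none was called without the block (edgeR; 2 had an unadjusted p under 0.05, and DESeq2 and limma-voom called 0). The chaperone genes Hsp90aa1 (log2 0.21 ± 0.04, edgeR adjusted p = 0.002158) and Ptges3, the co-chaperone p23 (0.19 ± 0.04, 0.002643), were higher with it, and without DMSO replicate 3 the log2 difference of Hsp90aa1 in the fit of treatment alone was 0.13. Of 13 coactivators and turnover genes, Tbl3, which has been placed in a ubiquitin ligase with the receptor, rose (136, 134 and 132 CPM with INT-777, against 114, 114 and 106 CPM with DMSO; log2 0.27 ± 0.05, edgeR adjusted p = 0.0482). With the block the coactivator Ncoa2 was lower (log2 −0.16 ± 0.04, edgeR adjusted p = 0.01336), but not when days 1 and 2 were summed (0.05758).

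Of 12 related factors of the bHLH-PAS family, which compete for or resemble ARNT, 8 were tested and none was called without the block (edgeR; 3 had an unadjusted p under 0.05, and DESeq2 and limma-voom called 0). With it Arnt2, a second partner of the receptor (log2 0.23 ± 0.06, edgeR adjusted p = 0.01303), and Hif1a, the hypoxia factor (0.13 ± 0.04, 0.0308), were higher and the clock factor Npas2 was lower (−0.34 ± 0.06, 0.000732). Hif1a was not called when days 1 and 2 were summed (edgeR adjusted p = 0.07796). Of all genes, 11.1% were called higher and 10.3% lower with the block. In the fit of treatment alone the log2 differences of Arnt2, Hif1a and Npas2 were 0.22, 0.13 and −0.34, and without DMSO replicate 3 they were 0.09, 0.07 and −0.15; that of Npas2 was −0.23 without INT-777 replicate 2 and −0.55 without INT-777 replicate 3. Of 13 enzymes of the kynurenine pathway, which makes ligands of the receptor from tryptophan, 5 were high enough to test. None was called without the block (edgeR; 1 had an unadjusted p under 0.05, and DESeq2 and limma-voom called 0), and Kyat1 was higher with it (log2 0.20 ± 0.07, edgeR adjusted p = 0.04413), but not when days 1 and 2 were summed (0.09532). Its log2 difference in the fit of treatment alone was 0.13 without DMSO replicate 3. The entry enzyme Ido1 had 0.254, 0.231 and 0.385 CPM with INT-777, against 0.195, 0.195 and 0.409 CPM with DMSO.

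Enterocyte markers were looked at beside the enzymes, since enterocytes make xenobiotic enzymes too. The summed level of 8 markers was 473, 485 and 465 CPM with INT-777, against 431, 438 and 373 CPM with DMSO. Of 7 tested, 1 was higher and 3 were lower when blocked by day (edgeR), where 11.1% of all genes were called higher and 10.3% lower. None was called in the fit of treatment alone. Alpi, intestinal alkaline phosphatase, had 145.4, 143.2 and 123.3 CPM with INT-777, against 90.2, 89.6 and 58.3 CPM with DMSO. Fabp1, another marker on the list, had 65.2, 67.8 and 55.5 CPM with INT-777, against 44.1, 43.5 and 23.1 CPM with DMSO. Neither gene stands for the list, where more of the tested markers were called lower than higher with the block. The part of these cells in the differences of the 8 genes was not tested.

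The genes whose profile over the 6 libraries was nearest to that of Ahrr, out of 11097 genes of at least 1 log2 CPM with an official symbol, were Col4a1, Akp3 and Col4a2. The root mean square difference of their centred log2 CPM from that of Ahrr was 0.103, 0.110 and 0.116. Col4a1 and Col4a2, the collagen IV chains of basement membranes, are neighbouring genes. Akp3, an alkaline phosphatase of the gut, had 101, 94.5 and 92.8 CPM with INT-777, against 49.48, 50.02 and 33.93 CPM with DMSO. Nearest to Ahr were the helicase gene Recql4, the poly(A)-binding protein gene Pabpc4 and Ggct, an enzyme of glutathione turnover, at 0.0227, 0.0312 and 0.0348. These likenesses are over 6 libraries, which differ by day and treatment.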

How the data were processed

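Counts of read pairs per gene were deposited by the authors for 6 libraries, unnormalised, as STAR writes them; per the submitters' processing notes FastQC, STAR 2.73a and edgeR 3.24.3 were used, and GRCm38 and mm10 are the named builds. No source used here gives the annotation release. The column that ignores strand was used, since 50.1 to 50.6% of stranded pairs fell in the first strand column. Unmapped (10.3 to 11.3%), multimapping (5.96 to 6.31%), unannotated (3.32 to 3.83%) and ambiguous pairs (4.35 to 4.53%) stayed out of library sizes, so reads shared by near-identical genes are not counted. IDs were paired with symbols for 54723 of 54838, through the GENCODE M21 annotation and a symbol table.

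Here, genes were filtered with filterByExpr (15998 left), scaled with TMM and compared with the edgeR 4.0.16 quasi-likelihood test in R 4.3.3, robust and two-sided, with Benjamini-Hochberg adjusted p under 0.05 over all genes. SE is the absolute log2 difference over the square root of F. CPM are counts over TMM-scaled library size. DESeq2 1.42.0 and limma 3.58.1 were alternatives, beside the day block, other filters and scaling, and leaving out libraries or days. The edgeR models were tested on simulated counts with known changes. A replicate number marks a day in the labels, so the libraries are paired by it. Their deviations from the group means correlated at 0.329, 0.369 and 0.632 on days 1, 2 and 3. Unmatched libraries of days 1 and 2 correlated as highly (0.336 and 0.364), so the check sets day 3 apart and does not tell day 1 from day 2. Each day is a separate pool of mice per the labels, and the libraries of days 1 and 2, alike but further apart than counting noise, were kept as replicates.

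The 8 genes, the lists and the split of days were chosen with earlier results of these data known. Named genes are the 8, Gpbar1 and Lgr5, up to 4 genes of each list, called with or without the block and of smallest p in the fit without it, 3 genes of nearest profile to Ahrr and Ahr, and marker genes; others named were chosen after their values were seen.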

Additional observations from a re-analysis of the deposited data

Results flagged for a closer look

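The treatment difference of Cyp1b1 was smaller on day 3 than on days 1 and 2, by −0.78 on the log2 scale (edgeR adjusted p = 0.02709). The same comparison was larger on day 3 for Nqo1, by 0.23 (edgeR adjusted p = 0.007867), and for the NRF2-list gene G6pdx, by 0.28 (edgeR adjusted p = 0.0004212). G6pdx had log2 differences of INT-777 minus DMSO of 0.09 and 0.05 on days 1 and 2 and 0.35 on day 3. This test of day 3 against days 1 and 2 passed for 7.01% of all genes, and its p-values rest on the spread between days 1 and 2 alone. Among the genes named by the rule, it passed for these 3. Of the listed pathway genes outside the rule it passed for 5 more: Areg (0.45, edgeR adjusted p = 5.801e-08), Slc7a11 (0.47, 1.254e-06), Ereg (0.31, 0.02151), Nfe2l2 (0.18, 0.02955) and Socs2 (−0.36, 0.01541). No group had enough libraries to look for single outlying libraries.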

How the results depend on the processing

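The direction of the differences in Ahr, Ahrr, Cyp1a1, Tiparp, Aldh3a1 and Nqo1 was the same in all 17 fits of treatment run here that tested them, while the call often was not. All these fits drew on the same 6 libraries. Of these genes only Ahr overlapped between groups, so the direction of the others could hardly change, and nothing is read from it. Beside 232 genes in the fit of treatment alone, 3415 were called with the day as a replicate block, 2694 with the block and days 1 and 2 summed (chosen after seeing the data), 435 with no filter, 798 with DESeq2, and 0, 3 and 4292 without both libraries of day 1, 2 and 3 (edgeR; 1189 with an unadjusted p under 0.05 without day 1, and no other tool was run); without single libraries the range was 8 to 273. Of the 232, 231 were called with the block in the same direction. Of the 8 genes, 3 were called, 7 with the replicate block, 6 with days 1 and 2 summed (Tiparp lost), 4 with DESeq2 (Nqo1 gained), 2 with limma-voom (Aldh3a1 lost), 2 with the stricter filter (Aldh3a1 not tested), 0, 0 and 7 without both libraries of day 1, 2 and 3, and 0 to 3 without single libraries. Of the 61 other pathway genes, 3 were called, 22 with the replicate block, 17 with days 1 and 2 summed, 1 with DESeq2 size factors, 0, 0 and 28 without both libraries of day 1, 2 and 3, and 0 without any single library. Genes that differed between days numbered 3273, and 2010 to 4867 without single libraries; genes whose treatment difference depended on the day numbered 1122, and 30 to 1489. Without INT-777 or DMSO replicate 3 that last model could not be fitted. Arnt, near 0 throughout, turned negative with no filter (−0.0003), with the stricter filter (−0.0075) and without both libraries of day 1 (−0.013), and ran from −0.0097 to 0.0108 without single libraries. Its difference between days turned negative with DESeq2 size factors and with DESeq2 (−0.0059 each) and with no filter (−0.0093), and ran from −0.0249 to 0.0261 without single libraries. Leaving out single libraries gave −0.0028 to 1.5362 for Cyp1b1, and for the dependence on the day −0.1565 to 0.198 for Aldh3a1 and −0.0425 to 0.03 for Tiparp. The cause of these shifts was not tested. Low counts limit Aldh3a1, at 15 pairs or fewer in each DMSO library.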

Other observations

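Cyp1a2, the neighbour and close relative of Cyp1a1 and itself a target of the receptor, was too low for the filter. It had 12, 12 and 10 pairs in the INT-777 libraries of days 1, 2 and 3, against 7, 4 and 6 in the DMSO libraries, 34 against 17 in all. Every INT-777 library lay above every DMSO library, as for 13.5% of the 15998 genes that passed the filter. In a fit of 29061 genes without the filter, the log2 difference of 0.95 ± 0.52 (SE) did not pass (edgeR adjusted p = 0.5998). That fit had no day block, and whether counts this low could show such a difference was not tested.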
